A study of Rattus norvegicus with 9 samples.

Results

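The matrix metalloproteinases, ADAMs and TIMPs described here are 10 genes measured in microglia sorted from rat retina: the metalloproteinases Mmp2, Mmp9, Mmp12 and Mmp14, the inhibitors Timp1, Timp2 and Timp3, and the membrane proteases Adam8, Adam10 and Adam17. They were chosen by name, and each had 1 row among the 28343 gene symbols of the count table. The control group comprised 5 libraries (numbered 1, 3, 4, 5 and 6) from Dark Agouti rats, an inbred strain, injected with citrate buffer. The diabetic group comprised 4 libraries (numbered 1, 2, 4 and 5) from rats of the same strain made hyperglycaemic with streptozotocin at 55 mg/kg, a toxin of pancreatic beta cells. All rats were 8 to 10 weeks old at injection and had fasted for 12 hours, retinas were taken 4 weeks later, and a blood glucose above 30 mmol/l was treated with 2 units of insulin. Streptozotocin acts as a chemical lesion, so the model is one of insulin deficiency. Cells were released from whole retina with papain and sorted on CD11b, a surface protein that microglia share with neutrophils, monocytes and border macrophages, and the RNA was preamplified before sequencing. The labels do not say whether a library held the cells of 1 rat or of several, so p-values measure the spread between these libraries.

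Matrix metalloproteinases are secreted or membrane-bound enzymes with a zinc ion in the active site. They are made as inactive precursors and cut collagens, laminins, fibronectin and other proteins outside the cell. TIMPs are small secreted proteins that occupy the active site and block it, and TIMP2 also helps MMP14 at the cell surface to activate the MMP2 precursor. ADAMs are related membrane proteases that release the outer part of other membrane proteins, among them cytokines, growth factors and receptors. In the nervous system microglia and infiltrating leukocytes are known sources of several of these enzymes, and gelatinases such as MMP9 have long been studied at the blood-retina barrier in diabetes.

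Library totals were 9156591 to 11332823 counts for controls and 6228756 to 9629829 for diabetic samples. Of 15 microglia markers in the table, 14 had counts, and together they took 35226 to 40120 CPM (counts scaled to a common library total) in controls and 35272 to 37443 CPM under diabetes. Siglech was the marker at 0 in all libraries. Controls 4 and 6 stood apart by 23 immediate-early and stress genes of tissue dissociation, with summed levels of 27242 and 35405 CPM against 4454 to 9679 CPM in the other controls and 12876 to 20684 CPM in the diabetic libraries. Levels below are CPM scaled by TMM factors, which correct for differences in RNA composition, and a log2 change is the fitted log2 fold change of diabetic over control libraries. In bulk libraries, fewer cells of a type and less RNA per cell cannot be told apart.

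The 10 genes together held 0.161% to 0.209% of the counts of a library, and Mmp2, Timp2, Adam10 and Adam17 made up 98.2% to 99.4% of that. The other 6 genes were rare. Mmp9 had 0 to 18 counts per library, Adam8 0 to 40, Mmp12 0 to 57, Mmp14 10 to 41, Timp3 4 to 215 and Timp1 32 to 136. The members whose diabetic and control libraries did not overlap were the 3 ADAMs. Adam8 was 4.83 times as high in the fitted comparison, Adam10 was 0.782 times and Adam17 0.875 times the control level. No overlap was seen for 8.44% of all genes tested. The fitted folds of Mmp9 (4.03) and Timp3 (0.428) were further from 1 than those of Adam10 and Adam17, with overlapping groups. Of 9 members tested, 0 passed an adjusted p of 0.05 in the edgeR quasi-likelihood test over 11748 genes, in which 8 genes (0.0681%) passed.

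**Figure D1:**
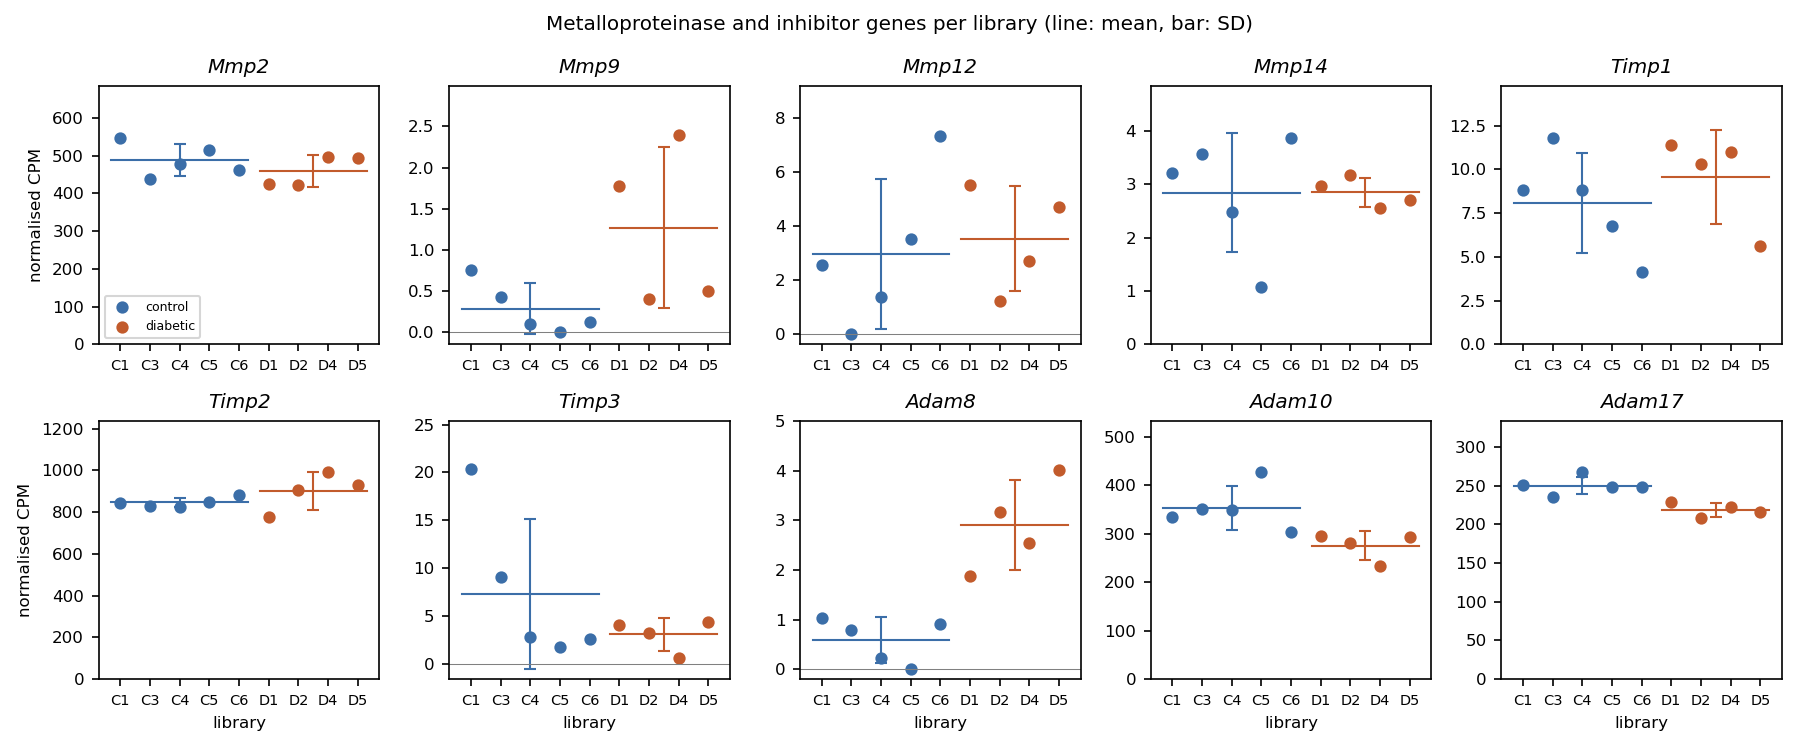
Normalised CPM of the 10 genes in each library (C, control; D, diabetic), with the mean as a line and the SD as a bar. The diabetic points of Adam8 lie above all control points, those of Adam10 and Adam17 lie below them, and the groups overlap for the other 7 genes.

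The 250 bases before the start of the 3 ADAM genes and of Mmp12 are shown because the ADAM genes separated the groups and Mmp12 had the largest SD of log2 CPM between controls among the tested members. The sequences are those of RefSeq on the rat build GRCr8, where 7 of the 10 genes were matched, and run 5′ to 3′ on the strand of the gene. Capitals mark matches on either strand to the GC box GGGCGG, the AP-1 site TGANTCA, the TATA box TATAAA or the PU.1 core GAGGAA. Of 33469 promoter windows of this length, 30.5% held the GC box, 6.34% the AP-1 site, 12.9% the TATA box and 23.3% the PU.1 core.
Adam8, chr1:204218323-204218572, minus strand: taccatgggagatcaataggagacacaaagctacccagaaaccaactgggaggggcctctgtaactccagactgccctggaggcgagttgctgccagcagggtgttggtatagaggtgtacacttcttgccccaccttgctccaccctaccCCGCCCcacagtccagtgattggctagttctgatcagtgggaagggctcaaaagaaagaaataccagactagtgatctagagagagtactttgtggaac
Adam10, chr8:80226612-80226861, plus strand: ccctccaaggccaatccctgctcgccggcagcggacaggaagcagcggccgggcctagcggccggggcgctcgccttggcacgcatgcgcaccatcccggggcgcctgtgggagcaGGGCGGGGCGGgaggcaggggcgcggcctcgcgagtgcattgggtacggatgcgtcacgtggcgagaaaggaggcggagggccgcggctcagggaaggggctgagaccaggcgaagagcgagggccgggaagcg
Adam17, chr6:46649345-46649594, minus strand: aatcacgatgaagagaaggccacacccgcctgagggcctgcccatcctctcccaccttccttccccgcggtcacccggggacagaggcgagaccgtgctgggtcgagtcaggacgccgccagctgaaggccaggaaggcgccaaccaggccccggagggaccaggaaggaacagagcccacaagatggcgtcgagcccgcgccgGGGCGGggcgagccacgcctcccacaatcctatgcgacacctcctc
Mmp12, chr8:12866402-12866651, plus strand: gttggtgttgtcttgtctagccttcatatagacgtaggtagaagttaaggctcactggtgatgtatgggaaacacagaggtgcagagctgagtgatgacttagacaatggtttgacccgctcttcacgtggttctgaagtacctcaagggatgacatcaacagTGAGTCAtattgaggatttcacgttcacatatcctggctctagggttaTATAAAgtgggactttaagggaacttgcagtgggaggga
The Adam10 window held 2 GC boxes that overlap by 1 base, starting 134 and 129 bases before the gene start, and the Adam17 window held 1, starting 46 bases before it. Adam8 had 1 GC box on the opposite strand, 99 bases before its start. The windows of Timp1 and Timp2 held 1 GC box each and that of Timp3 held 3. Mmp12 had no GC box, a TATA box 39 bases and an AP-1 match 87 bases before its start, and it was the only one of the 7 matched genes with either. G and C made up 74.4% of the Adam10 window, 68.4% of the Adam17 window, 52.4% of the Adam8 window and 45.6% of the Mmp12 window. A match describes letters and does not show a bound site.

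The secreted gelatinase Mmp2 was the metalloproteinase with the most counts in every library. Its level was 548, 437, 479, 515 and 463 CPM in controls 1, 3, 4, 5 and 6 and 424, 423, 497 and 493 CPM in diabetic 1, 2, 4 and 5. The groups overlapped, with diabetic 1 and 2 below every control and diabetic 4 and 5 among the controls. The mean level was 488 ± 43.5 CPM (SD, n = 5) in controls and 459 ± 41.2 CPM (SD, n = 4) under diabetes. This was a log2 change of -0.089 (95% interval -0.28 to 0.11), with a quasi-likelihood adjusted p of 0.622. It turned to 0.020 without normalization factors, a setting that moved the median of all genes from 0.0017 to 0.12. Mmp2 (ENSRNOG00000016695) lies on Rnor6 chromosome 19, 15542765 to 15570611, minus strand, by the span of its reference transcript.

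Mmp14, the membrane enzyme that activates the MMP2 precursor, had overlapping values in both groups. It was at 3.21, 3.56, 2.47, 1.07 and 3.87 CPM in controls 1, 3, 4, 5 and 6 and at 2.97, 3.17, 2.55 and 2.70 CPM in diabetic 1, 2, 4 and 5. All diabetic values lay inside the control range, and control 5 was the lowest. Its log2 change was 0.0082 (95% interval -0.70 to 0.72, quasi-likelihood adjusted p = 0.994). A change of either sign within that interval remained possible, and the values rest on 10 to 41 counts per library.

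Mmp12, the macrophage elastase, had the largest SD of log2 CPM between controls among the tested members. It had no count in control 3, which allows up to 0.260 CPM, and was at 2.55, 1.40, 3.53 and 7.36 CPM in controls 1, 4, 5 and 6. Diabetic 1, 2, 4 and 5 had 5.54, 1.23, 2.71 and 4.70 CPM, all within the control range. The highest value was that of control 6. The stress genes were highest in controls 6 and 4, and their part in the Mmp12 values was not tested. A log2 change of 0.29 (SE 0.90, quasi-likelihood adjusted p = 0.880) was smaller than the spread between controls, and it turned to -0.042 without control 3 and to -0.014 without diabetic 1. Over the 9 libraries the tested genes whose log2 CPM followed that of Mmp12 most closely were Maged1 (Pearson's r = 0.931), Plaur (0.911), the urokinase receptor gene, and Bmp2 (0.910), chosen from all tested genes and given as a description.

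Mmp9, the second gelatinase, was at the edge of detection. Controls 1, 3, 4, 5 and 6 had 8, 5, 1, 0 and 1 counts, or 0.756, 0.434, 0.108, 0 and 0.129 CPM, and the 0 in control 5 allows up to 0.321 CPM. Diabetic 1, 2, 4 and 5 had 18, 4, 15 and 5 counts, or 1.78, 0.409, 2.39 and 0.501 CPM. Diabetic 1 and 4 lay above all controls, while diabetic 2 and 5 lay among them. No control library and 2 diabetic libraries reached the filter level of 1.06 CPM, so Mmp9 did not enter the main test. Fitted without a filter on low counts, its log2 change was 2.01 (SE 0.89, quasi-likelihood adjusted p = 0.267). Fits that left out 1 library were added after the data were seen, and the log2 change ran from 1.55 without diabetic 4 to 2.70 without control 1. The unadjusted p was above 0.05 without diabetic 1 or without diabetic 4.

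Neutrophils store both MMP9 and the collagenase MMP8 in their granules, and some of their markers were highest in the same libraries as Mmp9. Mmp8 was at 1.70, 2.00, 0.323, 0 and 0.645 CPM in controls 1, 3, 4, 5 and 6 and at 8.20, 0.511, 6.38 and 3.20 CPM in diabetic 1, 2, 4 and 5, so that diabetic 1 and 4 were again highest. Its log2 change was 2.22 (SE 1.02, quasi-likelihood adjusted p = 0.216). S100a9, a calcium-binding protein gene of neutrophils and monocytes, was at 0.214 to 5.58 CPM in control libraries and at 37.1, 14.8, 52.9 and 14.9 CPM in diabetic 1, 2, 4 and 5. Of the 13 neutrophil markers, 10 had counts, and Ltf, Mpo and Lcn2 were at 0 in all libraries. The whole list summed to 303 to 386 CPM in controls and 318 to 386 CPM under diabetes, with overlap. Most of that was Csf3r, the G-CSF receptor gene, which with TMM factors was lower in every diabetic library (278 to 299 CPM) than in every control (301 to 370 CPM). Of all genes tested, 4.16% were lower without overlap. The log2 change of Csf3r was -0.19 (quasi-likelihood adjusted p = 0.246), and -0.081 in the authors' deposited table (adjusted p = 0.877). Of 6 markers tested, 5 were higher and 1, Csf3r, was lower, so leaving it out removes the marker that went the other way. Without Csf3r and Mmp8 the list summed to 1.08 to 13.4 CPM in controls and 30.1 to 88.0 CPM under diabetes. Diabetic 1 and 4 had 68.6 and 88.0 CPM. Within it, Ngp (means 0.112 and 0.116 CPM) and Elane (0.043 and 0.050 CPM) were near 0 in controls and diabetic libraries alike. The part of neutrophils in the Mmp9 difference was not tested.

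Among the inhibitors, Timp2 was high and even. It was at 845, 830, 827, 847 and 882 CPM in controls 1, 3, 4, 5 and 6, a coefficient of variation of 2.59%, and at 776, 906, 990 and 928 CPM in diabetic 1, 2, 4 and 5. Diabetic 2, 4 and 5 were above every control and diabetic 1 was below every control. Its log2 change was 0.089 (SE 0.088, quasi-likelihood adjusted p = 0.568). Timp2 (ENSRNOG00000003148) lies on Rnor6 chromosome 10, 107338465 to 107386072, minus strand, by its reference transcript. On TPM, which is scaled by transcript length, the reference transcript of Timp2 was at 196 ± 20.9 TPM (SD, n = 5) in controls and 171 ± 18.4 TPM (SD, n = 4) under diabetes, and the sign of its log2 change turned to -0.20 (limma adjusted p = 0.643). That of Mmp2 was at 60.9 ± 7.09 and 61.0 ± 12.0 TPM. Timp2 was thus above Mmp2 per length in every library, by 2.17 to 3.82 times. The other members had no reference transcript value in every library, and their levels were not compared between genes.

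Timp1, the TIMP that is typically induced in inflammation and injury, was at 8.79, 11.8, 8.82, 6.75 and 4.13 CPM in controls 1, 3, 4, 5 and 6 and at 11.4, 10.3, 11 and 5.61 CPM in diabetic 1, 2, 4 and 5. Control 3 was the highest library and control 6 the lowest. The groups overlapped, and the log2 change was 0.24 (95% interval -0.36 to 0.83, quasi-likelihood adjusted p = 0.671). Its reference transcript (ENSRNOG00000010208) spans Rnor6 chromosome X, 1364786 to 1369384, minus strand.

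Timp3, the TIMP that binds to extracellular matrix and also blocks ADAM17, came next to Mmp12 by the SD of log2 CPM between controls (1.42 and 1.95). It was at 20.3, 9.03, 2.80, 1.71 and 2.58 CPM in controls 1, 3, 4, 5 and 6 and at 4.05, 3.17, 0.638 and 4.40 CPM in diabetic 1, 2, 4 and 5. The high values were those of controls 1 and 3, and 3 of 4 diabetic libraries lay inside the control range. The fit gave a log2 change of -1.22 (SE 0.89, quasi-likelihood adjusted p = 0.425), and it was -0.38 without control 1. Endothelial and mural cells of vessels also make TIMP3. All 14 vascular cell markers in the table had counts, and they summed to 403 CPM in control 1 and 289 CPM in control 3, against 217 to 237 CPM in the other controls and 172 to 251 CPM in diabetic libraries. The basement membrane collagen genes followed the same controls, with Col4a1 at 10.8 and 8.16 CPM in controls 1 and 3 and at most 2.47 CPM in the other controls. The part of these cells in the Timp3 values was not tested.

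**Figure D2:**
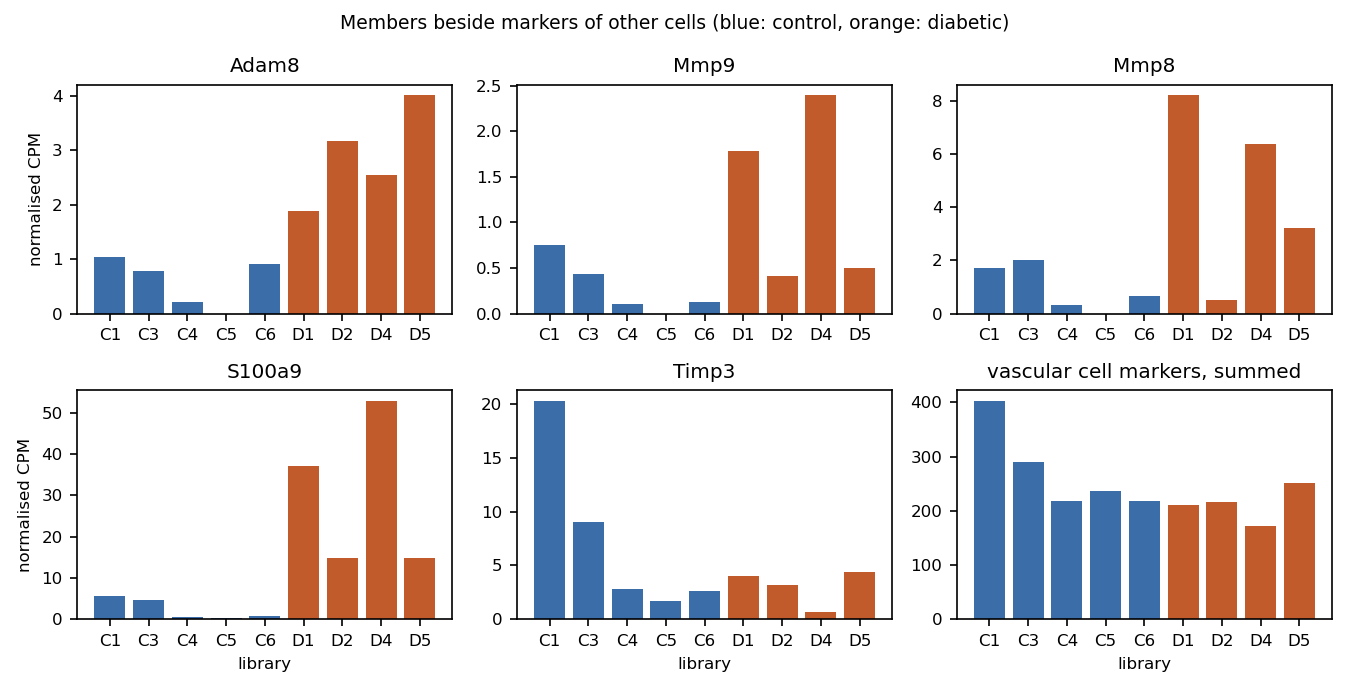
Normalised CPM per library of Adam8, Mmp9, Mmp8, the neutrophil gene S100a9 and Timp3, and the summed CPM of 14 vascular cell markers (blue, control; orange, diabetic). Mmp9, Mmp8 and S100a9 are highest in diabetic 1 and 4, Adam8 is highest in diabetic 5 and 2, and Timp3 and the vascular markers are highest in control 1.

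Adam8, a protease of leukocytes and activated macrophages, had the smallest p of the members. Controls 1, 3, 4, 5 and 6 had 11, 9, 2, 0 and 7 counts, or 1.04, 0.781, 0.215, 0 and 0.903 CPM, and diabetic 1, 2, 4 and 5 had 19, 31, 16 and 40 counts, or 1.88, 3.17, 2.55 and 4.00 CPM. All 4 diabetic libraries were above all 5 controls, and the nearest pair were control 1 and diabetic 1. The mean was 0.588 ± 0.454 CPM (SD, n = 5) in controls and 2.90 ± 0.905 CPM (SD, n = 4) under diabetes. The corresponding log2 change was 2.27 (95% interval 0.80 to 3.74), with a quasi-likelihood adjusted p of 0.102. The filter level was reached by 1 of 5 control and 4 of 4 diabetic libraries, so Adam8 was tested mainly because it was high in the diabetic group. The DESeq2 Wald test gave an adjusted p of 0.0108, where 4.88% of genes passed, and the quasi-likelihood fit with the stress genes as covariate gave 0.0335, where 9.09% passed. In the authors' deposited table the log2 change of Adam8 was 2.39 with an adjusted p of 0.00498, where 2.1% of 12069 genes passed (1.92% higher). The fit without normalization factors gave a log2 change of 2.38. Leaving out 1 library gave fold changes of 1.96 to 2.58 on the log2 scale with quasi-likelihood adjusted p-values of 0.0755 to 0.269.

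The whole neutrophil list overlapped between controls (303 to 386 CPM) and diabetic libraries (318 to 386 CPM). Without Mmp8 and Csf3r, the tested marker that went the other way, the sums were 1.08 to 13.4 and 30.1 to 88.0 CPM, without overlap. Most of this reduced sum in the diabetic libraries was S100a9 (14.8 to 52.9 CPM) and G0s2 (10.4 to 20.9 CPM). Within the diabetic group, diabetic 5 and 2 had the highest Adam8 and reduced sums of 30.1 and 30.1 CPM. Diabetic 1 had the lowest Adam8 of the group and a reduced sum of 68.6 CPM. All 10 markers of border macrophages, which surround retinal vessels, had counts. They summed to 433 to 904 CPM in controls and 745 to 1647 CPM under diabetes, with the highest value in diabetic 1. The groups overlapped, as control 3 (904 CPM) was above diabetic 2 (745 CPM). Of 7 monocyte markers in the table, 6 had counts and Ccr2 was at 0. Their sums of 1739 to 2392 CPM in controls and 1629 to 2486 CPM under diabetes overlapped and were mostly Lyz2, the lysozyme gene, at 1433 to 2284 CPM. Of 5 monocyte markers tested, 2 were higher and 3 lower, with a median log2 change of -0.024. Plac8 of this list was at 2.00 to 4.50 CPM in controls and 5.81 to 16.3 CPM under diabetes. It was higher without overlap, as were 4.27% of all genes tested, and had a log2 change of 1.46 (quasi-likelihood adjusted p = 0.0947). The part of these cells in the Adam8 values was not tested. The tested genes whose log2 CPM followed Adam8 most closely over the 9 libraries were Pdlim2 (Pearson's r = 0.930), Xrcc1 (0.923) and Fbxo46 (0.914), again picked from all genes and given as a description.

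Adam10 and Adam17 are the main sheddases of the cell surface, ADAM10 for Notch receptors and amyloid precursor protein among others and ADAM17 for TNF and its receptors. Adam10 was at 334, 351, 348, 427 and 303 CPM in controls 1, 3, 4, 5 and 6 and at 295, 281, 233 and 294 CPM in diabetic 1, 2, 4 and 5. Every diabetic library was below every control, by a narrow margin between control 6 and diabetic 1. The mean was 353 ± 45.5 CPM (SD, n = 5) in controls and 276 ± 29.4 CPM (SD, n = 4) under diabetes, a log2 change of -0.35 (95% interval -0.62 to -0.091). The quasi-likelihood adjusted p was 0.142, and the unadjusted p was below 0.05 whichever library was left out. These values rest on 1459 to 4037 counts per library.

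Adam17 was even between libraries of a group (SD of log2 CPM 0.064 in controls and 0.057 under diabetes). It was at 250, 236, 267, 248 and 248 CPM in controls 1, 3, 4, 5 and 6 and at 228, 208, 222 and 216 CPM in diabetic 1, 2, 4 and 5, with every diabetic library below every control. The mean was 249.9 ± 11.2 CPM (SD, n = 5) in controls and 219 ± 8.60 CPM (SD, n = 4) under diabetes. The fitted log2 change was -0.19 (95% interval -0.37 to -0.020), with a quasi-likelihood adjusted p of 0.215. The unadjusted p was below 0.05, and above it without control 4, diabetic 2 or diabetic 5. Adam17 (ENSRNOG00000060694) lies on Rnor6 chromosome 6, 43400528 to 43448280, minus strand, by its reference transcript.

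The size of the Adam10 and Adam17 differences depended on scaling. Without normalization factors the log2 changes were -0.24 and -0.076 (quasi-likelihood adjusted p-values 0.394 and 0.692), and relative to the shifted median of all genes they were -0.36 and -0.19. With upper-quartile factors they were -0.28 and -0.12 (quasi-likelihood adjusted p-values 0.235 and 0.423). Under both settings the diabetic and control libraries overlapped for Adam10 and Adam17, and Adam8 was the only member whose groups stayed apart, where 8.29% of genes with upper-quartile factors and 8.35% without factors did not overlap. In the authors' deposited table the log2 changes were -0.24 and -0.076, with adjusted p-values of 0.599 and 0.874. These log2 changes match those without normalization factors, so they do not stand for another scaling. The direction was lower in diabetic libraries in all 19 alternatives tried for each gene.

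The summed level of markers of Müller glia, the main glial cell of the retina, was also lower in the diabetic libraries. All 11 in the table had counts, and with TMM factors they summed to 2471 to 2693 CPM in controls and 2083 to 2347 CPM under diabetes, without overlap. This separation depended on scaling. Relative to library totals, the factors raised control 6 (factor 0.839, sum 2614 CPM) and lowered diabetic 1 (factor 1.07, sum 2347 CPM). Most of the sum was Glul and Slc1a3, the glutamine synthetase and glutamate transporter genes, with log2 changes of -0.17 and -0.36 (quasi-likelihood adjusted p-values 0.249 and 0.119). Rlbp1, a retinoid-binding protein gene of these cells, was at 24.2 to 60.3 CPM, with overlapping groups. The markers did not move as a set: of 10 tested, 4 were higher and 6 lower, with a median log2 change of -0.092. The part of these cells in the Adam10 and Adam17 values was not tested.

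**Figure D3:**
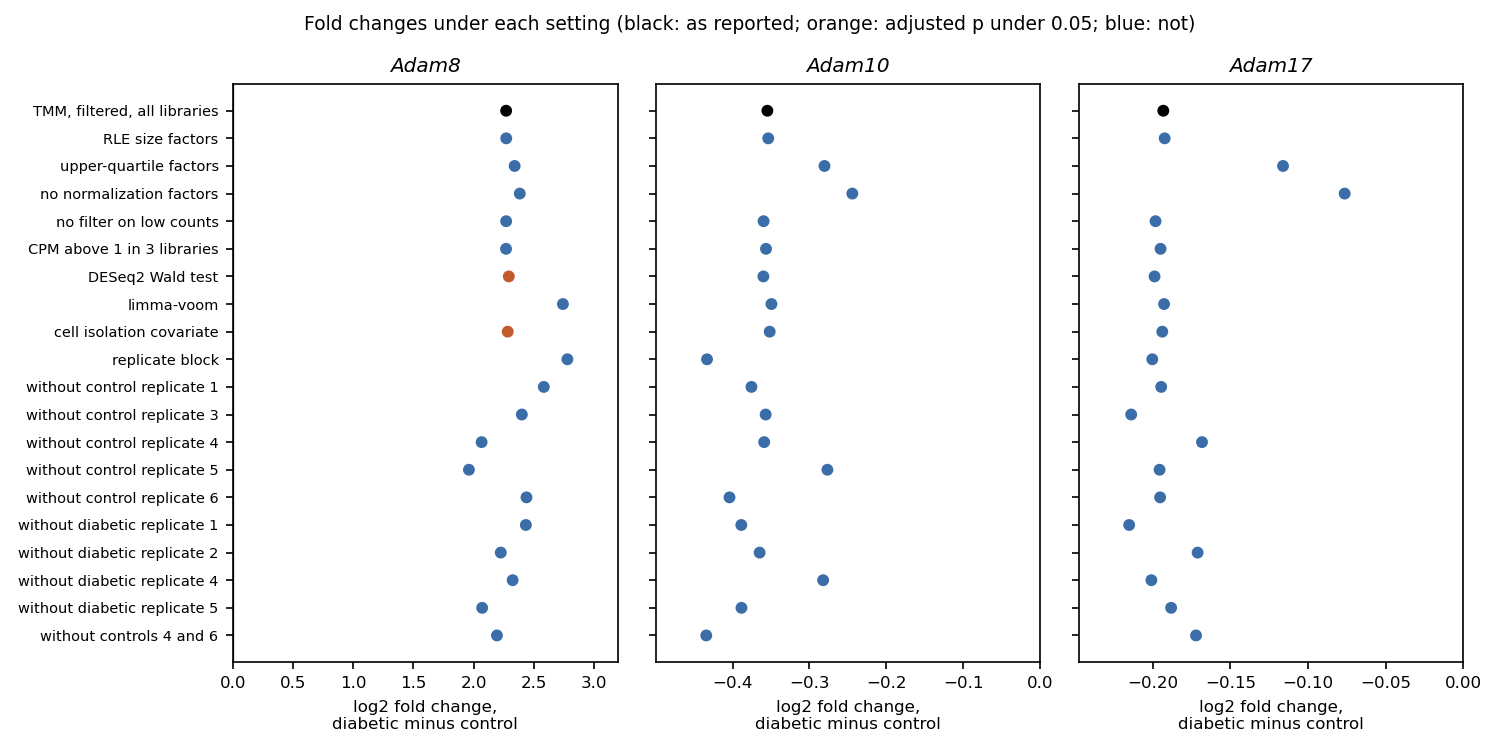
Log2 fold change (diabetic minus control) of Adam8, Adam10 and Adam17 under each setting, with black for the values reported in the text, orange for an adjusted p below 0.05 and blue for one above it. Adam8 lies between 1.96 and 2.78, Adam10 between -0.43 and -0.24 and Adam17 between -0.22 and -0.076.

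Of the 9 members tested, 5 were higher and 4 lower in diabetic libraries, with a median log2 change of 0.0082 beside 0.0017 over all genes tested. At an unadjusted p below 0.05 there were 3 members, Adam8 higher and Adam10 and Adam17 lower, where 18.9% of all genes passed, 8.94% higher and 10% lower. The groups did not overlap for the same 3 members, and over all genes 4.27% were higher and 4.16% lower without overlap. All 3 are ADAMs, and the other 6 members tested had quasi-likelihood adjusted p-values of 0.425 to 0.994. Adam8 reached the filter level in 1 of 5 control and 4 of 4 diabetic libraries. It thus entered these counts mainly because it was high in the diabetic group.

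Related genes of the family were then listed. The count table held 10 other ADAM genes, of which 4 were tested and 0 passed the adjusted threshold. Adam9, a sheddase close to ADAM10 in its targets, was at 103 ± 11 CPM (SD, n = 5) in controls and 86.7 ± 7.64 CPM (SD, n = 4) under diabetes. The log2 change of Adam9 was -0.25 (quasi-likelihood adjusted p = 0.236), and the authors' deposited table gave -0.14 with an adjusted p of 0.759. Adam19 was at 3.97, 2.26, 2.15, 2.89 and 4.77 CPM in controls 1, 3, 4, 5 and 6 and at 9.69, 5.72, 6.22 and 5.21 CPM in diabetic 1, 2, 4 and 5. Its log2 change was 1.07 (SE 0.37, quasi-likelihood adjusted p = 0.119), and the authors' deposited table gave 1.2 with an adjusted p of 0.0326. With TMM factors the groups did not overlap for Adam9 and Adam19, as for Adam8, Adam10 and Adam17, beside 8.44% of all genes tested. The overlap of Adam9 and Adam19 was not read under other scalings, under which Adam10 and Adam17 overlapped. The groups overlapped for Adam11 and Adam15. Adam11 was at 21.9 ± 5.36 CPM in controls and 25.4 ± 4.31 CPM under diabetes. Adam15 was at 185 ± 30.1 and 187 ± 21.4 CPM, with a log2 change of 0.018 (quasi-likelihood adjusted p = 0.951).

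Of 17 other metalloproteinase genes in the table, 9 had no count in any library, among them Mmp3, Mmp10 and Mmp13, and 4 were tested. Mmp19 was the most abundant of these, at 42.0 ± 5.51 CPM (SD, n = 5) in controls and 46.9 ± 7.35 CPM (SD, n = 4) under diabetes, with a log2 change of 0.15 (quasi-likelihood adjusted p = 0.529). Mmp23 was at 3.37 ± 0.545 and 4.04 ± 0.948 CPM. Of 18 ADAMTS genes, secreted relatives that cut proteoglycans and procollagens, 4 were tested. At an unadjusted p below 0.05 there was 1, where 18.9% of all genes passed. That gene, Adamts10, was at 45.3 ± 11.4 CPM in controls and 67.7 ± 21.4 CPM under diabetes, a log2 change of 0.58 (quasi-likelihood adjusted p = 0.232). Adamts5 and Adamts1 had log2 changes of 0.72 and -0.68 (quasi-likelihood adjusted p-values 0.366 and 0.423).

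**Figure D4:**
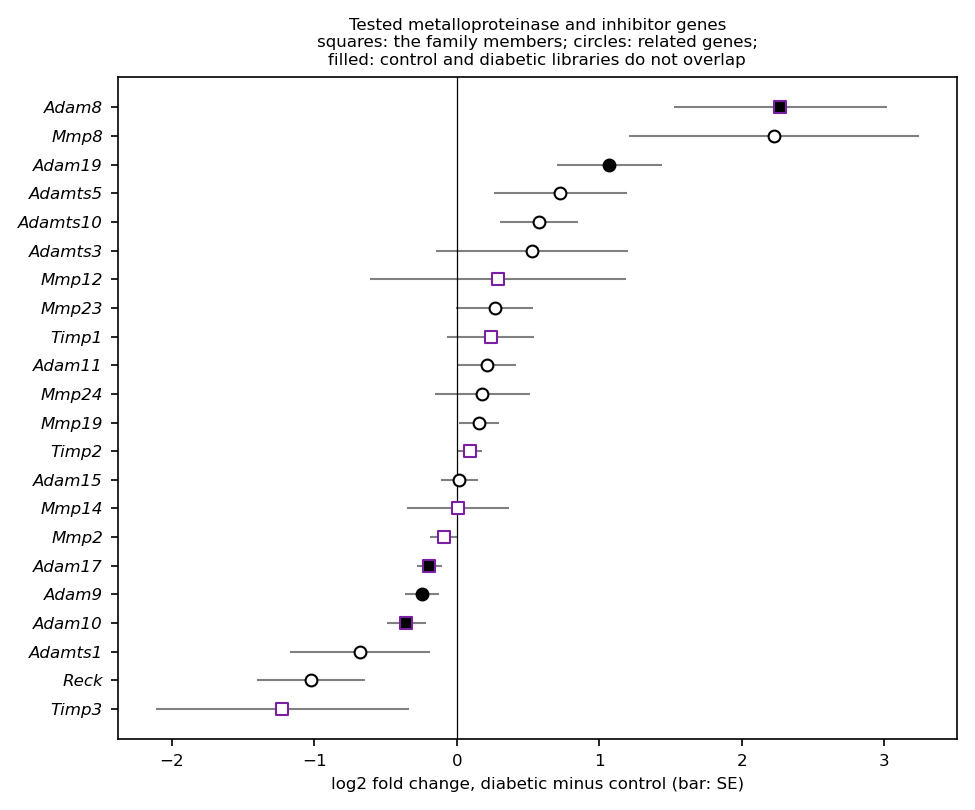
Log2 fold change (diabetic minus control) with its SE for the 22 tested metalloproteinase and inhibitor genes, squares for the 9 tested members and circles for related genes, filled where the control and diabetic libraries do not overlap. The filled symbols are Adam8 and Adam19 on the higher side and Adam9, Adam10 and Adam17 on the lower side.

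Reck, a membrane-anchored inhibitor of several MMPs and of ADAM10, was the 1 gene tested of 6 other inhibitors. It was at 9.45, 8.68, 6.13, 3.96 and 5.94 CPM in controls 1, 3, 4, 5 and 6 and at 2.37, 4.09, 2.39 and 4.50 CPM in diabetic 1, 2, 4 and 5. The groups overlapped at control 5, and the highest values were in controls 1 and 3, the libraries with most vascular markers. Reck had a log2 change of -1.02 (SE 0.38, quasi-likelihood adjusted p = 0.127). The part of vascular cells in this value was not tested.

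Of 15 activators, inducers and clearance receptors of MMPs, 10 were tested, 5 were higher and 5 lower. An unadjusted p below 0.05 was found for 1 of them, where 18.9% of all genes passed. Plat, the tissue plasminogen activator gene, was at 11.6 ± 5.92 CPM (SD, n = 5) in controls and 3.56 ± 2.50 CPM (SD, n = 4) under diabetes, with overlapping groups (log2 change -1.67, quasi-likelihood adjusted p = 0.239). Lrp1, an endocytic receptor that clears MMPs and TIMPs, was at 299 ± 61.9 and 244 ± 36.0 CPM, with a log2 change of -0.30 (quasi-likelihood adjusted p = 0.304).

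Partners that carry the sheddases to the cell surface were expressed. Of 6 TspanC8 tetraspanins, which escort ADAM10, Tspan14 and Tspan5 were tested. Tspan5 was at 67.8 ± 11.3 CPM (SD, n = 5) in controls and 54.4 ± 5.37 CPM (SD, n = 4) under diabetes, with every diabetic library below every control. This gave a log2 change of -0.32 (quasi-likelihood adjusted p = 0.217). Of all genes tested, 4.16% were lower without overlap with TMM factors. The authors' deposited table gave Tspan5 a log2 change of -0.21 with an adjusted p of 0.643. Tspan14 was at 138 ± 13.1 and 147 ± 8.36 CPM (log2 change 0.090). For ADAM17, the iRhom genes Rhbdf1 and Rhbdf2 and their partner Frmd8 had log2 changes of 0.11, -0.15 and -0.21, with quasi-likelihood adjusted p-values of 0.394 to 0.676. Rhbdf2 was highest in controls 4 and 6, at 90.8 and 93.0 CPM, against 49.0 to 58.8 CPM in the other controls.

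Of 28 membrane proteins that ADAM10 or ADAM17 can shed, 23 were tested, 10 higher and 13 lower, with a median log2 change of -0.021. At an unadjusted p below 0.05 there were 3 higher and 5 lower, where 18.9% of all genes passed (8.94% higher and 10% lower), and 0 passed the adjusted threshold. The 3 with the smallest p were the phagocytosis receptors Axl and Mertk and the haemoglobin scavenger receptor Cd163. Axl was at 368 ± 75.1 CPM (SD, n = 5) in controls and 608 ± 124 CPM (SD, n = 4) under diabetes, with a log2 change of 0.72 (quasi-likelihood adjusted p = 0.0895). Mertk was at 926 ± 121 and 698 ± 65.7 CPM, with a log2 change of -0.41 (quasi-likelihood adjusted p = 0.110). Cd163 was also a marker in the border macrophage list, and had a log2 change of 1.55. Tnf, the name-giving target of ADAM17, had at most 3.56 CPM, in control 3, and was not tested.

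Among 20 matrix and basement membrane genes in the table, 9 were tested, 4 higher and 5 lower. An unadjusted p below 0.05 was found for 1 of them, where 18.9% of all genes passed. Col4a2 was at 7.47, 4.25, 0.968, 2.46 and 2.19 CPM in controls 1, 3, 4, 5 and 6 and at 1.29, 1.43, 0.319 and 0.801 CPM in diabetic 1, 2, 4 and 5 (log2 change -1.81, quasi-likelihood adjusted p = 0.145). As for Timp3, its highest values were in controls 1 and 3. Lamc1, a laminin chain gene, had a log2 change of -0.49 (quasi-likelihood adjusted p = 0.278) and Col4a1 one of -1.50 (quasi-likelihood adjusted p = 0.343).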

How the data were processed

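RNA of sorted retinal microglia was sequenced in 9 libraries. The authors deposited raw counts per gene symbol, with no row lacking a name, and a comparison as log2 fold changes with p-values and adjusted p-values, which repeats these counts in 12069 genes. TopHat2 2.0.14, StringTie 1.2.4, edgeR and the build Rnor_6.0 are named per the submitters' processing notes, and which program counted reads, and with which strand option, is not given in the sources used here. TPM values and transcript spans come from StringTie assemblies on Rnor6, per the file headers.

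Genes were kept with filterByExpr (minimum count 10, minimum total 15), scaled by TMM and compared by quasi-likelihood in edgeR 4.0.16 under R 4.3.3 (limma 3.58.1, DESeq2 1.42.0 as alternatives), with Benjamini-Hochberg adjustment over all genes and a threshold of 0.05. SEs and 95% intervals of log2 fold changes were derived from the p-value through the normal distribution. The procedure was tested on simulated data. A count of 0 allows up to 3 counts, for counting error only. No 2 libraries matched within sampling noise (lowest chi-square per degree of freedom 11.7 over 36 pairs). log2 CPM used a prior count of 2 and log2 TPM a pseudocount of 1, over 1489 genes with a reference transcript in all libraries. All members are named, and of each list up to 3 genes with the smallest p. For the member with the smallest p and the one with the largest control SD, the 3 most correlated genes are given. Mmp3, Mmp10, Mmp13, Tnf, S100a9, Csf3r, Cxcr2, Ngp, Elane, Adam15, Lyz2, Plac8, Glul, Slc1a3 and Rlbp1 were named after their values were seen. Members and lists were chosen with earlier results of these data known.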

Additional observations from a re-analysis of the deposited data

How the results depend on the processing

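Over 183 member results under alternatives, 8 changed direction and 2 passed the adjusted threshold, both for Adam8 (0.0108 by the DESeq2 Wald test and 0.0335 with the stress genes of cell isolation as covariate). That made 1 member past the adjusted threshold under each of these 2 settings, against 0 in the main test and under the other alternatives. The number of members at an unadjusted p below 0.05 was 3, and became 1 without normalization factors (17.4% of all genes) and 0 of the 2 members that could be tested on TPM (9.47% of all genes there). When 1 library was left out it was 2 to 3, where 12.8% to 23.5% of all genes passed. The number of members whose groups did not overlap was 3, became 1 with upper-quartile factors (8.29% of all genes) and 1 without normalization factors (8.35%), and ran from 3 to 4 when 1 library was left out, where 10% to 14.5% of all genes did not overlap. The fourth was Timp2 without diabetic 1 (11.3%). Directions turned for Mmp2 without normalization factors (0.020), for Timp2 on TPM (-0.20), for Mmp12 without control 3 (-0.042) or diabetic 1 (-0.014), and for Mmp14 without control 4 (-0.037), control 5 (-0.20), diabetic 1 (-0.012) or diabetic 2 (-0.048). Leaving out 1 library gave at most 0.94 for Mmp12 and 0.14 for Mmp14, both without control 6. The cause was not tested. Adam8, Adam10, Adam17, Timp1 and Timp3 kept their direction in all 19 alternatives each, and Mmp9 in all 10 of its own.

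The libraries share the numbers 1, 4 and 5 between the groups, and deviations of same-numbered libraries correlated at 0.20, -0.11 and 0.016, with 2 of 6 libraries closest to their own number, so the numbers were not taken as pairs. With a replicate block 2 members (Adam8 and Adam10) had an unadjusted p below 0.05 (9.61% of all genes) and 0 passed the adjusted threshold, and the block fit called 0 of 11748 genes (1129 at an unadjusted p below 0.05). Depth limits Mmp9, Adam8, Mmp12 and Mmp14, whose values rest on at most 57 counts per library.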
